A study of Caenorhabditis elegans with 24 samples.

Results

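The cytosolic HSP70 genes of C. elegans were followed through RNA and ribosome-protected fragments (RPFs), to compare the heat-inducible hsp-70, F44E5.4 and F44E5.5 with the constitutive hsp-1. These 4 genes were chosen by symbol, matched to the WormBase gene identifier, from the 20447 genes in the files, and all 4 passed the filter on low counts in both assays. Whole adult animals of the wild type (N2) and of noNSUN were compared. noNSUN is a quadruple mutant of the RNA 5-methylcytosine methyltransferase genes, with catalytic point mutations in nsun-1, nsun-2 and nsun-4 and a deletion allele of nsun-5. Adults raised at 20 °C were kept in liquid culture at 20 °C or heat shocked at 27 °C, and RNA-seq and ribosome profiling libraries were made from the same lysates. This gave 8 groups of 3 replicates, 24 libraries in all, with wild type and noNSUN at 20 °C and 27 °C in each assay. The study describes its replicates as biological. The labels do not say which animals each number stands for.

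HSP70 proteins are ATP-driven chaperones that hold exposed hydrophobic stretches of client proteins, helped by J-domain proteins that deliver clients and by exchange factors that reset the cycle. hsp-1 encodes the HSC70 form that cells make at all times, while hsp-70, F44E5.4 and F44E5.5 encode forms transcribed on heat shock through the transcription factor HSF-1. HSF-1 binds heat shock elements, arrays of short units in alternating orientation, as a trimer. In whole-animal RNA, fewer cells expressing a gene and less RNA per cell cannot be told apart.

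In the WBcel235 assembly hsp-1 (WBGene00002005) is at IV:17278959-17281330 on the plus strand, with 4 exons and a product of 640 residues. F44E5.4 (WBGene00009691, II:11757107-11759311, minus strand) and F44E5.5 (WBGene00009692, II:11759662-11761861, plus strand) stand head to head with 350 bases between them, each with 2 exons and 645 residues. All 4 predicted proteins end in the EEVD motif, the C-terminal contact of cytosolic HSP70 with co-chaperones. The last 33 coding bases are shown because they carry that motif, with its 4 codons in capitals, and because they are the same in the pair and differ in hsp-1.
F44E5.4: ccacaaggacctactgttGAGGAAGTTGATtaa
F44E5.5: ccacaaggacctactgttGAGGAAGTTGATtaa
hsp-1: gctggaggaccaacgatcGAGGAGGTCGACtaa

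hsp-70 (WBGene00002026) is at I:9320325-9322519 on the minus strand, with 3 exons and 643 residues. The pair was identical well beyond the coding end shown. Over the 1938 coding bases F44E5.4 and F44E5.5 differed at 0 positions, and their introns of 109 bases were identical too. Their 3′ UTRs were 93.6% identical by alignment. hsp-70 shared 80.4% of aligned coding positions and 87.3% of aligned residues with the pair, against 65.2% and 67.0% with hsp-1. The pair and hsp-1 shared 65.9% and 69.5%. By sequence the 3 inducible genes were thus closer to each other than any of them was to hsp-1. UUG codons, whose decoding tRNA is methylated at the wobble base, made up 1.09% of hsp-70 codons, 2.02% in each of the pair and 1.56% in hsp-1, against 2.01% over all longest coding sequences.

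This identity sets what the counts of F44E5.4 and F44E5.5 can show. Of the 1908 windows of 28 bases (a footprint's length) in the counted coding sequence of F44E5.4, 0 were unique in the genome, and the same held for F44E5.5. For hsp-70 99.7% of such windows were unique and for hsp-1 94.8%, the other 98 being shared with a pseudogene. Yet the RPF files listed 224 counts for F44E5.4 and 237 for F44E5.5 over 12 libraries, 48.6% on F44E5.4 (Wilson 95% interval 44.1% to 53.1%, counting error only), with 14.3% to 66.7% in single libraries. The share between the copies is therefore no measure of their translation, and RPFs are given below for the pair summed. In RNA, with windows of 75 bases, 40 positions of F44E5.4 (1.98%) and 45 of F44E5.5 (2.23%) were unique, all reaching into the 3′ end. The RNA files listed 691 counts for F44E5.4 and 108 for F44E5.5, 86.5% on F44E5.4 (Wilson 83.9% to 88.7%), with 79.2% to 96.2% in single libraries. The study states that footprints were uniquely aligned, while counts are listed here on coding sequences with 0 unique windows. How those footprints were assigned is thus not known, nor is the handling of shared RNA reads given in the sources used here. If any shared reads were left out in either assay, the level of the pair is understated. The pair's level in RNA or RPFs, and its translation efficiency, therefore cannot be ranked against those of other genes. Ratios of the pair to hsp-1 below are read only as changes between temperatures. Its change between temperatures compares the same sequence in every library.

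The 250 bases upstream of the annotated start are shown for F44E5.4, F44E5.5 and hsp-1, to compare their heat shock element units. Units of heat shock elements in runs of 2 or more are in capitals, found on either strand as TTCNNGAA or GAANNTTC and their overlapping extensions. The windows are from WBcel235, II:11759312-11759561 (minus strand), II:11759412-11759661 (plus strand) and IV:17278709-17278958 (plus strand).
F44E5.4: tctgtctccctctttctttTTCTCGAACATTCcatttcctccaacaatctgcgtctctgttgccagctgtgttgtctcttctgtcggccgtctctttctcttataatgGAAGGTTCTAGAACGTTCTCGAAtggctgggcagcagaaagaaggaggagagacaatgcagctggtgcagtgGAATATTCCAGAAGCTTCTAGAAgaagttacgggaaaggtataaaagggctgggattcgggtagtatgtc
F44E5.5: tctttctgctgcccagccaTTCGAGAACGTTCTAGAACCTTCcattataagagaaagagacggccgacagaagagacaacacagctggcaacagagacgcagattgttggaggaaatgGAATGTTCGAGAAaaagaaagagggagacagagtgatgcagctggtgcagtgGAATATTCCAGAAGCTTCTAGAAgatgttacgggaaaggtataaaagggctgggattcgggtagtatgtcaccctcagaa
hsp-1: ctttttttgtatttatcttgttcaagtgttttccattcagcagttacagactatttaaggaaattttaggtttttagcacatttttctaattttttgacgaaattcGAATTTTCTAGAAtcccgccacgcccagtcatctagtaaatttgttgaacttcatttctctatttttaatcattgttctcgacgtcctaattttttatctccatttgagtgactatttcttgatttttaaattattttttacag

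F44E5.4 and F44E5.5 each held 3 runs in this window, a pair of them with 5 units and the third with 3 units. The 350 bases between the genes held 4 runs with 18 units, which both windows share in part. hsp-70 had 1 run of 3 units, starting 73 bases before its start, and a run of 2 units at 180 bases. hsp-1 had 1 run of 3 units, starting 144 bases before its start. Of 19984 promoter windows of protein-coding genes, 27.1% held a run of at least 2 units, 1.63% a run of at least 3 and 9 windows (0.045%) a run of at least 5, the pair among them. The annotated start of hsp-1 is 5 bases before its start codon, where many worm transcripts are joined to a spliced leader, so its window may not begin at the promoter. These are matches of letters and no binding was measured.

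**Figure D1:**
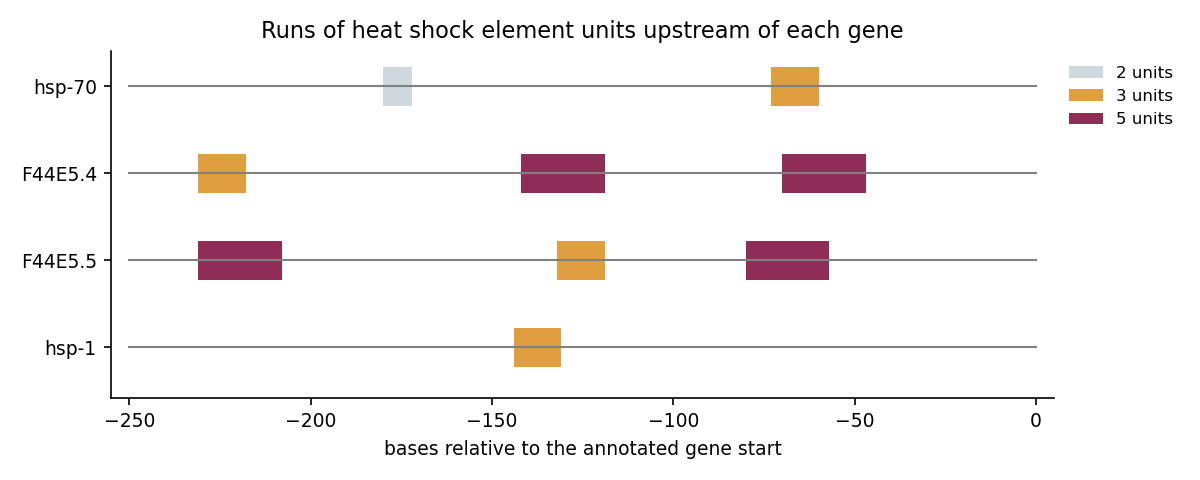
Runs of heat shock element units in the 250 bases upstream of each gene, with the distance in bases from the annotated gene start on the x axis and colour for the number of units in a run. F44E5.4 and F44E5.5 each have 3 runs, of 3 to 5 units, while hsp-70 and hsp-1 each have 1 run of 3 units.

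The RNA libraries held 1918731 to 3412334 counts and the RPF libraries 22761 to 396184 (median 61177.5), so that 3 RPF counts corresponded to between 7.44 and 132.9 CPM (counts scaled to a common library size). Adult tissue markers were present throughout, with mean RNA levels per group from 55.98 CPM for col-19, an adult cuticle collagen, to 39950 CPM for vit-6, a yolk protein. None of the 7 markers was called in RNA by edgeR or DESeq2 with heat in either genotype. An unadjusted p under 0.05 in edgeR was reached by 0 and 2 of 7, against 1055 and 984 of 10815 genes. The RPFs of vit-2 and vit-5, both yolk proteins, were lower at 27 °C in noNSUN. These 2 of 6 tested were called, with log2 changes of -0.89 and -1.21, against 56 of 1624 genes called in either direction. Between genotypes 0 of the 7 markers were called in RNA at either temperature. At 20 °C 1 of 7, col-19, had an unadjusted p under 0.05 in edgeR, against 491 of 10815 genes. Its log2 difference (noNSUN against wild type) was 0.70 ± 0.24 (SE) at 20 °C and 0.52 ± 0.26 at 27 °C. The part of these marker differences in the results below was not tested. nsun-5, which carries the deletion, had 34 to 41 RNA counts in noNSUN against 60 to 72 in wild type at 20 °C, and 27 to 36 against 41 to 46 at 27 °C. Values below are CPM on TMM-scaled library sizes as mean ± SD (n = 3) unless stated, and a gene is called at an edgeR adjusted p under 0.05. Whether the libraries of compared groups overlap is given as a description only. How many of all genes were without overlap was not counted.

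The first question was how far heat raised each gene's RNA. hsp-70 RNA rose 26.3-fold in wild type and 48.7-fold in noNSUN, from only 5 to 13 counts per library at 20 °C. In wild type it stood at 2.45, 4.44 and 4.01 CPM at 20 °C (replicates 1, 2 and 3) and at 120.3, 66.9 and 101.9 CPM at 27 °C. In noNSUN it stood at 3.83, 1.77 and 1.63 CPM and at 164.7, 69.7 and 112.4 CPM. Every 27 °C library was far above every 20 °C library. The log2 fold change was 4.72 ± 0.39 (SE) in wild type and 5.61 ± 0.41 in noNSUN, with edgeR quasi-likelihood adjusted p of 4.28e-05 and 1.13e-05 over 10815 genes (Benjamini-Hochberg). It was the third largest rise of all genes tested in each genotype.

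**Figure D2:**
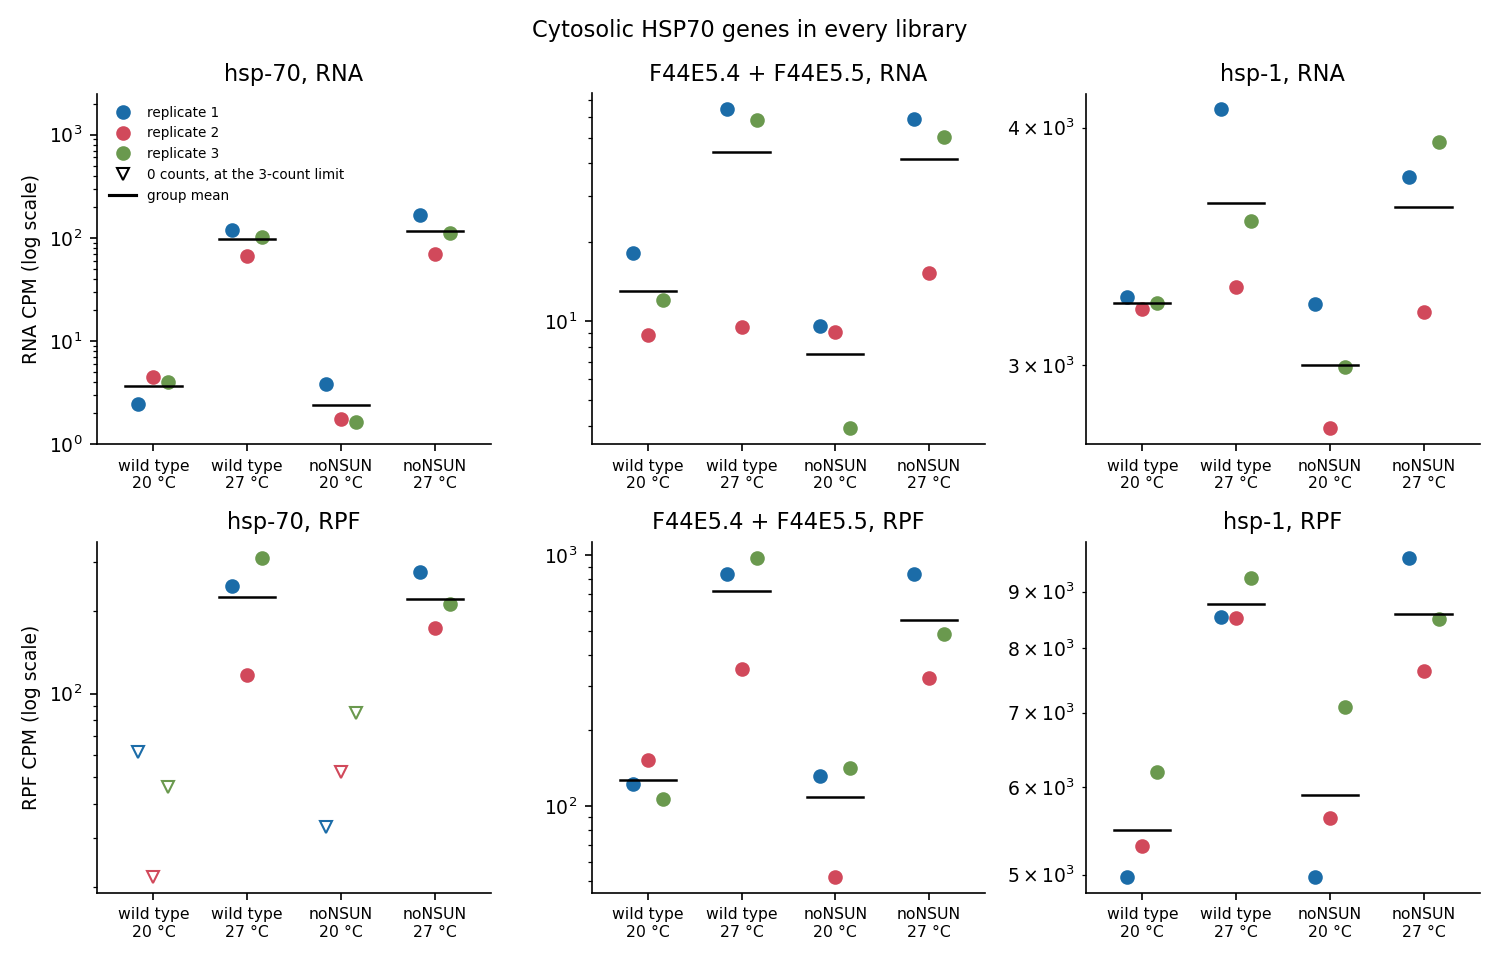
RNA (top) and RPF (bottom) levels of hsp-70, of F44E5.4 and F44E5.5 summed, and of hsp-1 in each library, in CPM on log axes whose range differs between panels; points are libraries coloured by replicate number, bars are group means, and open triangles mark libraries with 0 counts at the level of 3 counts. hsp-70 RNA is at 1.63 to 4.44 CPM in the 20 °C libraries and 66.9 to 164.7 CPM in the 27 °C libraries, and its RPFs appear only at 27 °C.

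F44E5.4 and F44E5.5 RNA moved the same way with wide spread between replicates. In wild type the pair summed stood at 18.2, 8.88 and 12.02 CPM at 20 °C and at 64.3, 9.49 and 58.4 CPM at 27 °C. Replicate 2 at 27 °C thus lay inside the range of the 20 °C libraries, and the groups overlapped. noNSUN levels ran from 9.58, 9.12 and 3.91 CPM up to 59.3, 15.2 and 50.4 CPM, without overlap. The log2 fold change of the pair was 1.76 ± 0.60 in wild type (edgeR adjusted p = 0.278) and 2.47 ± 0.64 in noNSUN (0.117), so neither was called. With only the compared groups in the fit the noNSUN rise was called (adjusted p = 0.0071), as it was with no filter on low counts (0.00772) and with replicate 2 left out of every group (0.0307). With replicate 1 left out of every group both were called (0.0371 and 0.00251).

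The copies could be told apart only at the 3′ end. F44E5.4 RNA averaged 12.3 ± 4.65 CPM at 20 °C and 38.2 ± 26.5 at 27 °C in wild type, and 6.32 ± 2.66 and 34.6 ± 18.8 in noNSUN. F44E5.5 RNA averaged 0.767 ± 0.435 and 5.88 ± 4.19 CPM in wild type, and 1.22 ± 0.492 and 7.06 ± 5.03 in noNSUN, from 7 and 11 counts in all at 20 °C. F44E5.4 had more counts than F44E5.5 in every RNA library. Its log2 change with heat was 1.65 ± 0.60 in wild type and 2.46 ± 0.65 in noNSUN, and that of F44E5.5 was 2.82 ± 0.78 and 2.49 ± 0.71, with edgeR adjusted p between 0.127 and 0.329. None of these was called. F44E5.5 passed the filter on low counts in RNA only through the 27 °C libraries, so that a difference between temperatures was built into its being tested.

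hsp-1 RNA was abundant at both temperatures. In wild type it stood at 3259, 3210 and 3233 CPM at 20 °C and at 4089, 3298 and 3572 CPM at 27 °C. In noNSUN it stood at 3229, 2779 and 2992 CPM and at 3768, 3198 and 3929 CPM. The wild-type groups did not overlap although the lowest 27 °C library was close to the 20 °C range, and the noNSUN groups did overlap. The log2 fold change was 0.18 ± 0.12 in wild type (edgeR adjusted p = 0.713) and 0.28 ± 0.12 in noNSUN (0.503). Only with replicate 1 left out of every group was the noNSUN value called (0.31, adjusted p = 0.0325).

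In RNA 1 of the 4 genes was called higher with heat in each genotype, hsp-70, against 0.472% of all genes tested in wild type and 0.472% in noNSUN. An unadjusted p under 0.05 was reached by 3 of 4 genes in wild type and 4 of 4 in noNSUN, against 1055 and 984 of all 10815 genes, and F44E5.4 and F44E5.5 among them share nearly all their sequence. This count is a description, since F44E5.5 entered the RNA test only through the 27 °C libraries. Per kilobase of transcript, hsp-1 RNA was 884-fold above hsp-70 in wild type and 1240-fold in noNSUN at 20 °C. At 27 °C the gap was 37.6-fold and 31.2-fold. Even at its highest, hsp-70 remained the far scarcer message.

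The second question was how far ribosomes followed the RNA. hsp-70 RPFs were seen only after heat shock. The 6 libraries at 20 °C held 0 counts, where 3 counts would have been 21.7 to 85.3 CPM. At 27 °C the wild-type libraries held 25, 4 and 7 counts (244.6, 116.8 and 310.2 CPM) and the noNSUN libraries 46, 70 and 7 counts (276.4, 173.6 and 211.6 CPM). Set against 3 counts per library at 20 °C, the mean was at least 5.21-fold higher in wild type and at least 3.88-fold higher in noNSUN. The edgeR adjusted p was 0.000196 and 0.000178 over 1624 genes, but hsp-70 passed the filter on low counts only through the 27 °C libraries, so that a difference between temperatures was built into its being tested.

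The RPFs of F44E5.4 and F44E5.5 summed rose 5.43-fold in wild type and 5.03-fold in noNSUN. In wild type they stood at 122.9, 151.9 and 106.9 CPM at 20 °C and at 841.5, 350.4 and 975 CPM at 27 °C. In noNSUN they stood at 131.9, 52.2 and 142.2 CPM and at 841.3, 324.9 and 483.7 CPM. No 27 °C library overlapped the 20 °C range in either genotype. The log2 fold change was 2.44 ± 0.41 in wild type (edgeR adjusted p = 0.000448) and 2.33 ± 0.43 in noNSUN (0.00076), both called, from 34 and 20 counts at 20 °C and 120 and 287 counts at 27 °C. The pair too passed the filter on low counts only through the 27 °C libraries. A difference between temperatures was thus built into its being tested as well.

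hsp-1 RPFs were also higher in every 27 °C library. In wild type they stood at 4977, 5310 and 6182 CPM at 20 °C and at 8542, 8526 and 9262 CPM at 27 °C. In noNSUN they stood at 4980, 5618 and 7082 CPM and at 9651, 7630 and 8495 CPM. The groups did not overlap in either genotype. The log2 fold change was 0.67 ± 0.20 in wild type (edgeR adjusted p = 0.128) and 0.55 ± 0.20 in noNSUN (0.143), not called in either, while the DESeq2 test called the wild-type rise (0.69, adjusted p = 0.0198). All 3 inducible genes were called higher in RPFs in each genotype, against 0.924% of all genes tested in wild type and 1.05% in noNSUN. This count is a description, since all 3 entered the test only through the 27 °C libraries and F44E5.4 and F44E5.5 share their footprints.

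**Figure D3:**
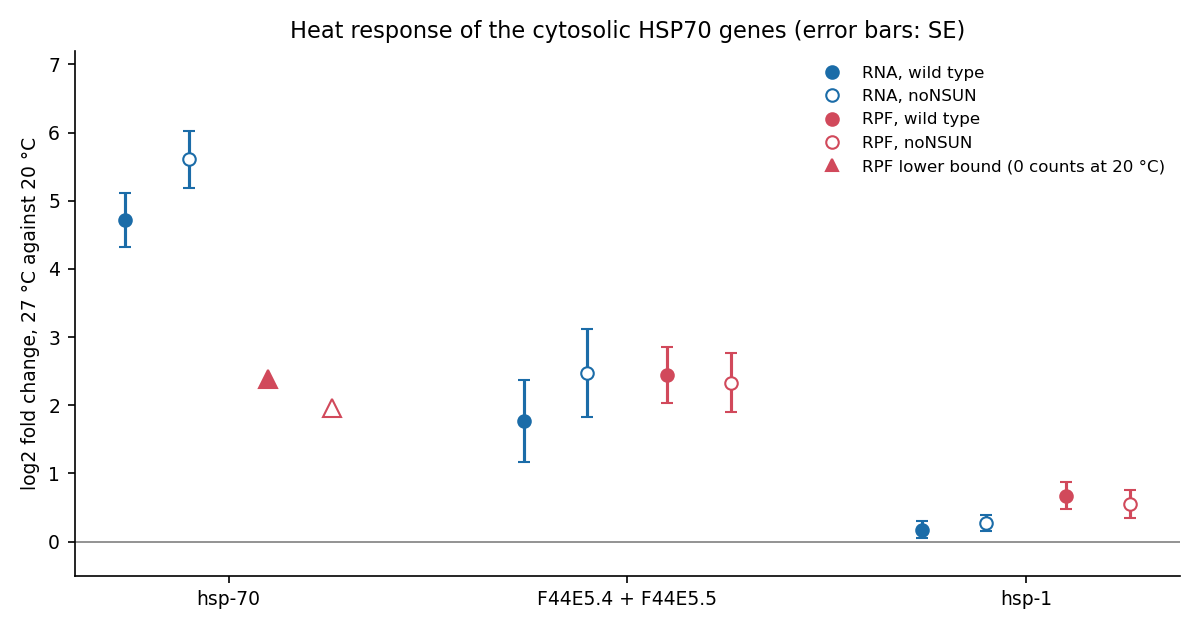
Log2 fold change at 27 °C against 20 °C for hsp-70, for F44E5.4 and F44E5.5 summed, and for hsp-1, in RNA and RPF of each genotype, with SE bars; triangles mark the lower bound of hsp-70 RPFs, which had 0 counts at 20 °C. hsp-70 RNA lies at 4.72 and 5.61, the pair between 1.76 and 2.47, and hsp-1 between 0.18 and 0.67.

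The inducible genes were then set against hsp-1 within each library, a ratio that does not depend on scaling. It does not depend on library size either, apart from the 0.5 added to each count before testing. Per 1000 hsp-1 counts, hsp-70 RNA had 0.75, 1.38 and 1.24 counts at 20 °C and 29.4, 20.3 and 28.5 at 27 °C in wild type. In noNSUN it had 1.19, 0.635 and 0.544 counts and then 43.7, 21.8 and 28.6. The log2 ratio to hsp-1 (0.5 added to each count) rose by 4.50 in wild type and by 5.23 in noNSUN, without overlap between temperatures. With 3 libraries against 3 the smallest two-sided exact permutation p is 0.1, which both reached. Over both genotypes, with labels permuted within genotype, the exact permutation p was 0.005, the smallest possible (0.00667 adjusted over the 4 ratios tested).

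The pair rose less steeply against hsp-1. Its RNA went from 5.57, 2.77 and 3.72 to 15.7, 2.88 and 16.3 counts per 1000 hsp-1 counts in wild type, and from 2.97, 3.28 and 1.31 to 15.7, 4.76 and 12.8 in noNSUN. Over both genotypes its log2 ratio was higher at 27 °C by 1.64 (exact permutation p = 0.025, adjusted p = 0.025), with overlap in wild type only. Without wild-type replicate 1 or 3 at 27 °C this p was 0.05. Its RPFs went from 24.7, 28.6 and 17.3 to 98.5, 41.1 and 105 per 1000 in wild type, and from 26.5, 9.29 and 20.1 to 87.2, 42.6 and 56.9 in noNSUN. The RPF log2 ratio rose by 1.67 without overlap in either genotype (exact permutation p = 0.005, adjusted 0.00667).

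For hsp-70 RPFs the ratio at 20 °C is only bounded. The 3-count limit stood at 4.09 to 12.3 per 1000 hsp-1 counts in wild type and at 6.62 to 12 in noNSUN. The wild-type libraries reached 28.6, 13.7 and 33.5 at 27 °C, and the noNSUN libraries 28.6, 22.7 and 24.9, all above those limits. The exact permutation p over both genotypes was 0.005 (adjusted 0.00667). At 27 °C hsp-70 thus held 13.7 to 33.5 counts per 1000 of hsp-1 in RPFs and 20.3 to 43.7 in RNA.

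**Figure D4:**
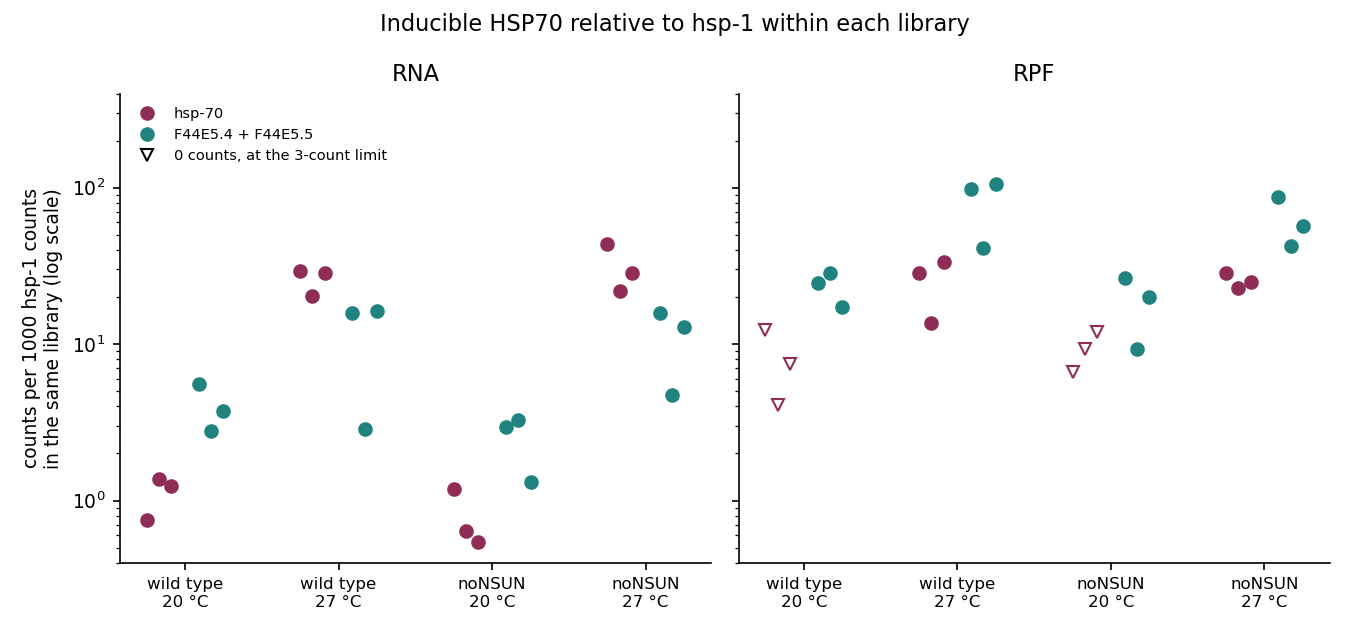
Counts of hsp-70 and of F44E5.4 and F44E5.5 summed per 1000 hsp-1 counts of the same library, on a log axis, for RNA (left) and RPF (right) in each group; points are libraries and open triangles mark libraries with 0 counts at the level of 3 counts. hsp-70 RNA moves from 0.544 to 1.38 at 20 °C up to 20.3 to 43.7 at 27 °C.

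Because the 4 coding sequences are of nearly the same length (1923 to 1938 bases), their RPF counts can be read as shares of one pool. The inducible genes took 2.41%, 2.78% and 1.70% of it in wild type at 20 °C and 11.3%, 5.19% and 12.2% at 27 °C. In noNSUN they took 2.58%, 0.92% and 1.97% and then 10.4%, 6.13% and 7.57%. The Wilson 95% intervals of single libraries reached 5.16% at most at 20 °C and started at 3.22% or above at 27 °C, so the least deep libraries were less firmly separated than the values. In wild type the mean share went from 2.30% ± 0.549 to 9.56% ± 3.81, and in noNSUN from 1.82% ± 0.84 to 8.03% ± 2.17. hsp-1 still held 87.8% to 94.8% of the pool in the 27 °C libraries. At 27 °C the listed counts of the pair were 7.29% ± 2.95 of the pool in wild type and 5.69% ± 1.94 in noNSUN, and those of hsp-70 2.26% ± 0.855 and 2.34% ± 0.217. It is not known how the pair's shared footprints were assigned, so these shares are of the counts as deposited. The pair had 0 unique windows of footprint length, so its listed counts are themselves of shared footprints. If any others were left out, the inducible share is understated.

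Translation efficiency, RPFs per kilobase of coding sequence over RNA per kilobase of transcript in the same lysate, could be given for hsp-1 in all groups and for hsp-70 at 27 °C. hsp-1 stood at 1.65, 1.78 and 2.06 at 20 °C and at 2.25, 2.79 and 2.80 at 27 °C in wild type, without overlap. In noNSUN it stood at 1.66, 2.18 and 2.55 and at 2.76, 2.57 and 2.33, with overlap. The log2 change with heat was 0.46 ± 0.21 in wild type (edgeR adjusted p = 0.809) and 0.29 ± 0.21 in noNSUN (0.597), not called in either over 1599 genes. At 27 °C hsp-70 stood at 2.16, 1.86 and 3.24 in wild type and at 1.79, 2.65 and 2.0 in noNSUN, a range that overlapped that of hsp-1.

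At 20 °C hsp-70 gave no footprint from which to take an efficiency. Had its RNA been translated as at 27 °C, the 3 wild-type libraries together would have held 2.26 counts and the noNSUN libraries 1.02, both under the 3-count limit. A lower translation efficiency at 20 °C was therefore not detectable within either genotype at this depth. For the pair the log2 change in efficiency was 0.66 ± 0.86 in wild type and -0.08 ± 0.80 in noNSUN (edgeR adjusted p = 0.912 and 0.994). Neither hsp-1 nor the pair was called in translation efficiency with heat, against 0% of all genes tested in either genotype. hsp-1 had an unadjusted p under 0.05 in edgeR in wild type only, and DESeq2 called 0 members in both. In noNSUN, hsp-1 was the only member to which DESeq2 gave an adjusted p.

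**Figure D5:**
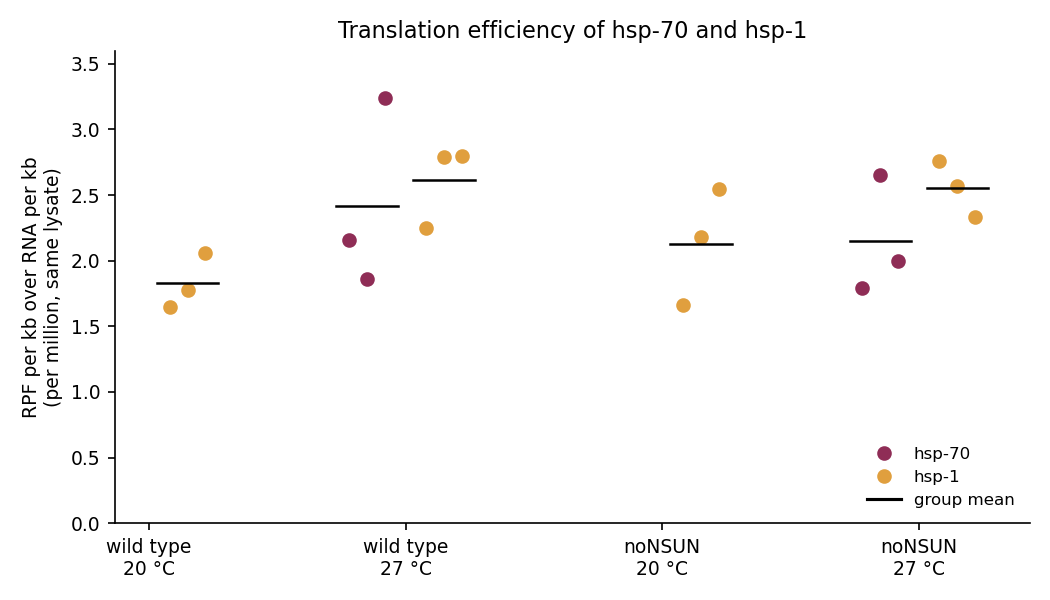
Translation efficiency of hsp-70 and hsp-1 in each lysate, as RPFs per kilobase over RNA per kilobase, each in CPM, with group means as bars; hsp-70 is not drawn at 20 °C, where it had 0 RPF counts. At 27 °C the points of hsp-70 lie between 1.79 and 3.24 and those of hsp-1 between 2.25 and 2.80.

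The third question was whether loss of the NSUN methyltransferases changed these genes. None of the 4 was called between noNSUN and wild type in RNA, at 20 °C (0.0832% of all genes called) or at 27 °C (0.0277%). For hsp-70 the log2 difference in RNA was -0.63 ± 0.59 at 20 °C and 0.26 ± 0.28 at 27 °C. For hsp-1 it was -0.11 ± 0.12 and -0.01 ± 0.12, and for the pair -0.79 ± 0.68 and -0.09 ± 0.56. The libraries of both genotypes overlapped in each of these 6 comparisons. F44E5.4 alone did not overlap at 20 °C, with 17.46, 8.51 and 10.79 CPM in wild type and 8.05, 7.65 and 3.26 CPM in noNSUN. This difference was not called (log2 difference -0.96 ± 0.69, edgeR adjusted p = 0.937).

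In RPFs hsp-70 could not be compared at 20 °C, where both genotypes had 0 counts. None of the other 3 genes was called at 20 °C (1.72% of all genes called) and none of the 4 at 27 °C (0.0616%). The log2 difference in hsp-1 RPFs was 0.11 ± 0.20 at 20 °C and -0.01 ± 0.20 at 27 °C, that of the pair was -0.28 ± 0.53 and -0.39 ± 0.34, and that of hsp-70 at 27 °C was -0.01 ± 0.45. In translation efficiency only hsp-1 could be read at 20 °C (0.19 ± 0.21, not called, 0.25% of all genes called), and hsp-70 and hsp-1 at 27 °C, with -0.26 ± 0.53 and 0.02 ± 0.21 (not called, 0% of all genes called). Of the members that could be compared, 0 reached an unadjusted p under 0.05 in RNA, RPFs or translation efficiency and DESeq2 called 0 at either temperature. DESeq2 gave no adjusted p to F44E5.5 in RNA at either temperature. It also gave none to F44E5.4 or F44E5.5 in RPFs and translation efficiency at 20 °C.

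Whether the genotypes responded to heat to a different extent was tested directly. In RNA it was 0.89 ± 0.66 for hsp-70, 0.70 ± 0.88 for the pair and 0.10 ± 0.17 for hsp-1 on the log2 scale (edgeR adjusted p = 1 for each). In RPFs it was -0.11 ± 0.65 for the pair and -0.12 ± 0.29 for hsp-1 (adjusted p = 0.999). In translation efficiency it was -0.74 ± 1.25 for the pair and -0.17 ± 0.29 for hsp-1 (adjusted p = 0.95 and 0.966). No member that could be compared was called in RNA, RPFs or translation efficiency, against 0% of all genes tested in each (125 of 10815, 84 of 1624 and 133 of 1599 genes had an unadjusted p under 0.05). DESeq2 also called 0 members, and 0 had an unadjusted p under 0.05. For hsp-70 RPFs and translation efficiency no such difference can be given, since both genotypes had 0 counts at 20 °C.

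Replicates also differed among themselves. Replicate 2 had the lowest value of the 3 for hsp-70, for the pair and for hsp-1 at 27 °C, in RNA and in RPFs of both genotypes. The gap between the highest and the lowest 27 °C library was 1.80-fold and 2.36-fold for hsp-70 RNA, 6.77-fold and 3.89-fold for the pair, and 1.24-fold and 1.23-fold for hsp-1, in wild type and noNSUN. Whether a number marks a shared culture or day is not given in the sources used here. Without replicate 2, an alternative chosen after seeing the data, hsp-70 RNA changed by 5.07 and 5.67 on the log2 scale and the pair by 2.03 and 3.04.

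Of 8 other HSP70-family genes, 1 was called higher in RNA by edgeR in each genotype, against 0.472% of all genes in each. DESeq2 called 1 in wild type and 2 in noNSUN. The gene called by edgeR was hsp-4, which encodes an endoplasmic reticulum HSP70 of the BiP type. Its log2 change was 0.73 ± 0.12 in wild type and 0.74 ± 0.12 in noNSUN (edgeR adjusted p = 0.00742 and 0.0066), and its RPFs rose by 1.15 ± 0.26 and 1.13 ± 0.26. The median log2 change of the 8 was 0.16 and 0.29, against -0.009 and 0.007 over all genes tested. In RPFs 6 of the 8 were tested and hsp-4 was the only one called in each genotype (0.924% and 1.05% of all genes were called higher).

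Of 8 co-chaperones, 3 were called higher in RNA by edgeR in wild type and 2 in noNSUN, against 0.472% of all genes in each, and 0 were called lower. DESeq2 called 4 of the 8 in each genotype. The median log2 change was 0.50 and 0.39, against -0.009 and 0.007 over all genes tested. dnj-19, a J-domain protein of the DnaJA type, changed by 0.72 ± 0.09 and 0.48 ± 0.09. sti-1, the HOP adaptor that links HSP70 to HSP90, changed by 0.62 ± 0.11 and 0.76 ± 0.11. hip-1, the HSC70-interacting protein, rose by 0.68 ± 0.13 in wild type, and in noNSUN the value was 0.57 ± 0.13 (edgeR adjusted p = 0.0504, while DESeq2 gave 0.0057). In RPFs 5 of the 8 were tested and 1 was called in each genotype (0.924% and 1.05% of all genes were called higher), hip-1 in wild type (1.25 ± 0.29) and dnj-19 in noNSUN (1.14 ± 0.29). The genotype difference in this response was called for 0 of the 8 in RNA and 0 of 5 in RPFs by edgeR and DESeq2, with 0 and 1 (hip-1) at an unadjusted p under 0.05.

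Of 4 regulators of the response (hsf-1 itself, its binding protein hsb-1, and ddl-1 and ddl-2 of the complex that holds HSF-1 back), 0 were called in RNA by edgeR or DESeq2 in either genotype. An unadjusted p under 0.05 in edgeR was reached by 1 of 4 in each, against 1055 and 984 of all 10815 genes. That gene was hsf-1, named after its values were seen, with log2 values of -0.38 ± 0.16 and -0.54 ± 0.16. In RPFs 0 of the 4 had enough counts to be tested. Transcript levels of these regulators say nothing of the activity of HSF-1.

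Across the 12 RNA libraries, the genes whose log2 CPM followed hsp-70 most closely were hsp-16.41 (r = 0.992) and hsp-16.2 (0.982), which encode small heat-shock proteins, then sti-1 (0.98), ahsa-1 (0.968), an activator of HSP90, and hsp-4 (0.968). Those nearest to hsp-1 were ndub-8 (0.918), icd-1 (0.916), cct-7 (0.904), a chaperonin subunit, aqp-10 (0.903) and timm-23 (0.899), a mitochondrial import subunit. The search covered 8078 genes averaging 10 CPM or more, and the 12 points share the heat treatment, so the values are descriptions only. hsp-70 and hsp-1 themselves correlated at 0.802. F44E5.4 was nearer to hsp-1 (0.883) than to hsp-70 (0.777), and F44E5.5 nearer to hsp-70 (0.843) than to hsp-1 (0.769). At 20 °C F44E5.5 had only 1 to 4 RNA counts per library in wild type and 2 to 5 in noNSUN. The copies also share nearly all their sequence, so these values are not read as a difference between them. hsp-16.41 changed by 6.70 and 6.55 and hsp-16.2 by 7.39 and 6.76 on the log2 scale, while the 5 neighbours of hsp-1 changed by 0.13 to 0.50.

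The counts of hsp-70 and hsp-1 are little touched by overlapping annotation. hsp-70 lies within uggt-2 on the opposite strand with 0 shared exon bases, and uggt-2 had 2 to 6 RNA counts and 0 RPF counts per library. An intron of hsp-1 holds the small nucleolar RNA gene F26D10.24, which also shares 0 exon bases with it. The strand setting of the counting was not given in the sources used here.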

How the data were processed

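Per the labels, 24 libraries were made from whole adult C. elegans, 12 of rRNA-depleted input RNA and 12 of ribosome footprints from the same lysates. The authors deposited raw counts per gene for each library. For RNA they trimmed reads with Trimmomatic 0.39, removed rRNA reads with SortMeRNA, aligned to WBcel235 with HISAT2 2.1.0 and counted with HTSeq-count. For footprints they kept uniquely aligned reads of periodic lengths and deposited counts over the longest coding sequence without its first 10 codons. The version and strand setting of the counting are not given in the sources used here. The labels' growth and treatment fields also describe other growth temperatures and RNAi feeding, while the study's methods give the culture used for these libraries as on plates and then in liquid.

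The edgeR package (4.0.16, under R 4.3.3) was run on the counts with TMM factors from each assay, filterByExpr (minimum count 10, minimum total 15), quasi-likelihood fits over the 12 libraries of an assay and Benjamini-Hochberg adjustment over all genes tested (10815 in RNA, 1624 in RPFs). All tests were two-sided. Translation efficiency was the interaction of assay and group over 24 libraries and 1599 genes. Standard errors are the log2 fold change over the square root of F. CPM use library totals scaled by TMM. Levels compared between genes are per kilobase, of transcript for RNA and of coding sequence for RPFs. Ratios to hsp-1 had 0.5 added to each count and were tested by exact permutation over libraries. A limit for 0 counts is 3 counts. Intervals and limits cover counting error only. The scripts were tested on simulated data. Alternatives were other size factors, DESeq2 1.42.0, no filter, fewer libraries, a replicate block, 1 added to each count, and leaving out each library or, chosen after seeing the data, replicate 2 of every group.

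Gene models and coordinates are from Ensembl release 115 of WBcel235, and bases were read from the RefSeq copy of that assembly. Uniqueness was scored over the whole genome and all transcripts on exact matches. 19620 of 20447 identifiers had a symbol. The text names the 4 members, genes of lists of HSP70 relatives, co-chaperones, regulators and adult markers (at most 4 per list, those called with the largest change in wild-type RNA with heat) and the 5 genes nearest by correlation to hsp-70 and to hsp-1. hsf-1 and the 4 adult markers given with values were named outside this rule, after their values were seen. Members and lists were chosen with earlier results of these data known.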

Additional observations from a re-analysis of the deposited data

How the results depend on the processing

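The rise of hsp-70 in RNA and RPFs and of F44E5.4 and F44E5.5 summed in RPFs was called with heat in both genotypes under every alternative run. The RNA rise of the pair was not so firm. Whether replicate numbers pair the libraries is not established. Same-numbered RNA libraries deviated together in 17 of 18 pairs (correlation above 0.1, mean 0.377, against a mean of -0.177 for different numbers). RPF libraries did so in only 5 of 18 (mean 0.066, against -0.033). Of the libraries, 8 of 12 in RNA and 11 of 12 in RPFs correlated best with their own number. With a replicate block the pair was called in wild type (1.69, edgeR adjusted p = 0.00808) and noNSUN (2.33), as were F44E5.4 (1.57 and 2.34) and F44E5.5 (2.79 and 2.37), and hsp-1 RPFs in wild type (0.68). DESeq2 also called hsp-1 RPFs in wild type (0.69). Without a filter on low counts F44E5.4 (2.42) and the pair (2.44) were called in noNSUN RNA, and with only the compared groups likewise (2.46 and 2.48). In these cases the cause was not tested.

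Differences near 0 changed sign. At 27 °C the genotype difference in hsp-70 RPFs was 0.22 with no filter and 0.13 with the replicate block, and that in hsp-1 RPFs was 0.21 with no filter. The genotype difference in the heat response of RPFs was 0.18 for the pair with no filter, 0.22 with the block, and 0.15 for hsp-1 with no filter. In translation efficiency the pair changed by 0.17 with heat in noNSUN with the replicate block by lysate. hsp-1 differed between genotypes at 27 °C by -0.008 with DESeq2 size factors, -0.007 with the DESeq2 test and -0.013 with the compared groups only, and by 0.043 in the heat response with no filter.

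The number of genes called over the whole table moved more. As reported it was 102 and 112 with heat (wild type, noNSUN) and 9 and 3 between genotypes (20 °C, 27 °C) in RNA, 21, 56, 28 and 1 in RPFs, and 0, 0, 4 and 0 in translation efficiency. In RNA, DESeq2 gave 175 and 177 genes with heat and 16 and 10 between genotypes, the replicate block 459, 443, 160 and 23, the compared groups only 23, 239, 0 and 5, and no filter 18 and 6 between genotypes. In RPFs the block gave 32 and 87 with heat and 56 and 6 between genotypes, DESeq2 17 and 3, no filter 9 and 3, and the compared groups only 4 at 27 °C. In translation efficiency with heat DESeq2 gave 1 and 15, no filter 1, the block by lysate 19 and the compared groups only 4 in noNSUN. Between genotypes DESeq2 gave 31 and 1, the block by lysate 22 and 3, no filter 0 and the compared groups only 0 at 20 °C, and DESeq2 gave 1 for the difference in heat response.

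Leaving out libraries moved the values as follows. The RNA change with heat in wild type ran from 1.37 to 2.23 for the pair and 2.33 to 3.33 for F44E5.5. In noNSUN it ran from 2.14 to 3.04 for the pair, 2.14 to 3.02 for F44E5.4 and 0.21 to 0.36 for hsp-1. The joint RNA ratio of the pair to hsp-1 ran from 1.43 to 2.05. The genotype difference in RNA at 27 °C ran from -0.081 to 0.52 for hsp-70, -0.62 to 0.30 for F44E5.4, -0.37 to 0.76 for F44E5.5, -0.55 to 0.31 for the pair and -0.075 to 0.079 for hsp-1, and that in heat response from -0.96 to 0.16 for F44E5.5. In RPFs the genotype difference at 20 °C ran from -0.65 to 0.27 for the pair and -0.02 to 0.22 for hsp-1, at 27 °C from -0.26 to 0.21 for hsp-70 and -0.13 to 0.072 for hsp-1, and in heat response from -0.66 to 0.25 for the pair and -0.25 to 0.013 for hsp-1. In translation efficiency the pair ran from -0.67 to 0.30 with heat in noNSUN and from -0.059 to 1.46 between genotypes at 20 °C, and hsp-1 from -0.18 to 0.081 at 27 °C. Genes called in RNA ran from 8 to 583 with heat in wild type, 15 to 587 in noNSUN, 0 to 152 and 0 to 72 between genotypes, and 0 to 5 for the difference in heat response. The lowest and highest heat counts came without replicate 2 and without replicate 1 of every group. In RPFs they ran from 10 to 37, 26 to 64, 0 to 42, 0 to 5 and 0 to 7, and in translation efficiency from 0 to 1, 0 to 2, 0 to 52, 0 to 4 and 0 to 12. The lowest RPF heat counts came without replicate 2 of every group in wild type and without noNSUN replicate 1 at 20 °C.

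Depth limits hsp-70 RPFs at 20 °C to an upper bound, and the RPFs of F44E5.4 and F44E5.5 are known only as a sum. The 3 libraries per group and the spread of replicate 2 at 27 °C set the precision of the pair.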
